A study of Mus musculus with 8 samples.

Results

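The 10 genes Cdx2, Eomes, Gata3, Gata2, Tead4, Tfap2c, Tfap2a, Elf5, Klf5 and Elf3 encode transcription factors of the trophectoderm, the outer epithelium of the blastocyst that goes on to form the placenta. They were chosen by symbol, and all 10 were found among the 22810 genes of the deposited counts. RNA was measured in 8 single mouse blastocysts collected at E3.5 from natural matings and lysed without culture, so that each embryo is a replicate and no cells were pooled across embryos. The forward cross had a B6 mother and a cast (Mus musculus castaneus) father and gave embryos 1, 2 and 3. B6 is C57BL/6, an inbred laboratory strain, which the labels call Mus musculus musculus and the methods Mus musculus domesticus. The reverse cross had a cast mother and a B6 father and gave embryos 1, 2, 3, 5 and 7. All embryos are therefore F1 hybrids with 1 B6 and 1 cast allele, and no genetic alteration or treatment was applied in either group. The methods say that embryos were removed before the analysis and do not match them for sex, and the labels do not give litters. The p-values below thus cover these embryos only. Those between alleles come from a main fit that takes the alleles of an embryo as separate libraries. Differences in total level between embryos therefore enter their errors. The direction of the cross cannot be told apart from the mother, the litter or the day of collection.

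The values are counts of reads that cover a SNP between B6 and cast, which assign each read to 1 allele. B6 is maternal in the forward and paternal in the reverse cross. The median gene had 55.4% to 58.0% B6 reads per embryo, so this level and not 50% is the reference. A B6 share above that level in both crosses is thus an excess of 1 strain. A share above it in 1 cross and below it in the other is an excess of 1 parent. Because the number of covered reads depends on how many SNPs a transcript carries, levels were compared between embryos and alleles of a gene and never between genes. Levels are given in CPM, counts scaled to a common library size after TMM normalization.

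In the outer cells of the embryo, Hippo signalling is low, and the co-activator Yap1 enters the nucleus and binds Tead4, which switches on Cdx2 and Gata3. Tfap2c and Klf5 act early and help to open this programme, while Cdx2, Eomes, Elf5 and Tfap2c later form a circuit that keeps trophoblast stem cells. Gata2, Gata3 and Tfap2a are used in the trophoblast lineages that follow, and Elf3 is a factor of epithelial cells.

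The SNP-spanning reads summed to between 1060063 and 1632695 per embryo, and B6 alleles received 57.4% to 58.3% of them. Markers of all 3 lineages of the blastocyst were present in every embryo. Without TMM scaling, 18 trophectoderm product genes summed to 3112 to 9428 CPM, 10 epiblast genes to 775 to 1169 and 8 primitive endoderm genes to 698 to 1382. Reverse embryo 1 stood apart, with a median correlation of 0.756 with the other embryos (across genes, log2 CPM) where each of the others had 0.870 to 0.907. Its trophectoderm products made up the lowest sum, and the other 7 embryos lay between 6780 and 9428. Leukocyte markers summed to 853 CPM in forward embryo 1, of which 99.8% were maternal, to 45.1 and 58.7 in forward embryos 2 and 3 and to between 3.77 and 5.34 in the reverse embryos. Lyz2 held 1149 of the reads of these markers over all embryos, C1qb held 280 and Ptprc 27. Some members overlap other genes. Gata3 shares 77 exonic bases with 9230102O04Rik (37 reads) and Eomes 118 with Gm33460 (61 reads), while reads of the antisense genes Gm26642 at Elf3 and Gm13256 at Gata3 were not analysed here. Results of the members that rest on reverse embryo 1 or forward embryo 1 are given below with and without them.

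Promoter sequences are shown for the 5 members that had their lowest level in reverse embryo 1, as described below. Of genes with a mean of at least 50 reads, 37.6% were also lowest there, so the choice does not set these members apart. The sequences are from RefSeq (GRCm38.p6, the same coordinates as mm10) and run from 250 bases before to 50 bases after the annotated start. RefSeq promoters were available for 7 of the 10 members, and those of Tfap2a and Elf5 are not shown. The Cdx2 promoter lies at chr5:147307200-147307499 on the minus strand, that of Gata3 at chr2:9878551-9878850 on the minus strand, that of Eomes at chr9:118477939-118478238 on the plus strand, those of Gata2 at chr6:88193641-88193940 and chr6:88198414-88198713 on the plus strand (2 annotated starts) and that of Elf3 at chr1:135258423-135258722 on the minus strand. Capitals mark matches, on either strand, to short motifs of the members' own factor families.
Cdx2: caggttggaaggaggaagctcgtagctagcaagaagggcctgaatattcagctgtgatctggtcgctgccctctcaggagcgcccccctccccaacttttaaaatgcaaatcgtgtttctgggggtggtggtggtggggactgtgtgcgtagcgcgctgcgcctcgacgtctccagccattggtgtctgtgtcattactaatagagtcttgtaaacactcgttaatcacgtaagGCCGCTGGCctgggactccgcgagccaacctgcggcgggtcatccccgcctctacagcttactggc
Gata3: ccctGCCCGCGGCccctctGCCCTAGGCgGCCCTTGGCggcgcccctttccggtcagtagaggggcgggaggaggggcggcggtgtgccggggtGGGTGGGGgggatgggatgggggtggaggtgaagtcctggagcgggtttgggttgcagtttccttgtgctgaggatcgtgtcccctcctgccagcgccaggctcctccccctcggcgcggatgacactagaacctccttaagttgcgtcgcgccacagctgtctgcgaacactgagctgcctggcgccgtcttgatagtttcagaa
Gata2, first start: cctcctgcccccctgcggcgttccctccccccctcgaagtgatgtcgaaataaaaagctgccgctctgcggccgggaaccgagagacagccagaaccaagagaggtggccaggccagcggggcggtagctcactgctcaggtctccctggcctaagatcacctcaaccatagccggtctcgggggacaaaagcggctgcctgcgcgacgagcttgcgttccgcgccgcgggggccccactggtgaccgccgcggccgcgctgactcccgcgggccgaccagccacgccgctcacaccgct
Gata2, second start: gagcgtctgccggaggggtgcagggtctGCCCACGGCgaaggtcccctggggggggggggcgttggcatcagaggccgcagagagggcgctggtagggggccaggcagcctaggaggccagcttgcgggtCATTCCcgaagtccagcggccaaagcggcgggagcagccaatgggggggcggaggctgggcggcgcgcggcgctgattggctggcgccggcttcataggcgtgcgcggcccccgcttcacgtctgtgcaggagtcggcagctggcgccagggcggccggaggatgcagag
Eomes: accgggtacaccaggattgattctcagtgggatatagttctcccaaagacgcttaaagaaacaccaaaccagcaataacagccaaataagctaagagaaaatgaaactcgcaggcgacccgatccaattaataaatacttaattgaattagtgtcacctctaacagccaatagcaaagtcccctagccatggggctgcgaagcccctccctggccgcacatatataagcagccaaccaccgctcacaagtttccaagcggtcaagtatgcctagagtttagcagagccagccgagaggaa
Elf3: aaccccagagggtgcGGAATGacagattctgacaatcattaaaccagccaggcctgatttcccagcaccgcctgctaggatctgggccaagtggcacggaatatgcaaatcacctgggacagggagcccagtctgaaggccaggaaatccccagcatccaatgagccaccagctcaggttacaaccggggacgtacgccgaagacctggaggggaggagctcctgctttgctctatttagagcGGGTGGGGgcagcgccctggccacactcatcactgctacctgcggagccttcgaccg

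The motifs searched belong to the families of the 10 factors, and their frequency was counted in 32851 mouse promoters of the same length. The letters GGAATG, bound by TEAD proteins, were in 14.7% of promoters. The pattern GCCNNNGGC of the AP-2 family, to which Tfap2a and Tfap2c belong, was in 16.6%. For Krüppel-like factors CCCCACCC was searched, together with the variant CCCCGCCC, and found in 24.7%. The T-box letters AGGTGTGA, for the family of Eomes, were in 1.28% of promoters. For the factors Gata2 and Gata3 the letters AGATAA were searched. The GATA letters TGATAA were counted with them, and 18.6% of promoters held either. For Cdx2 and its relatives the letters TTTATGG were searched. The CDX letters TTTATTG were counted with them, and 7.20% held either. No match overlapped another in the promoters shown. With positions counted from the start, Cdx2 had 1 AP-2 match at -16, and Gata3 had 3 AP-2 matches and 1 KLF match. The second Gata2 promoter had 1 AP-2 match at -222 and 1 TEAD match at -120, and the first had none. Elf3 had 1 TEAD match at -235 and 1 KLF match at -7, and Eomes had none. Of the promoters not shown, those of Elf5 held a TEAD match at -173 and a KLF match at -93, and those of Tfap2a held none. Most of the motifs are common, and a match is a description of the sequence only.

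The first comparison asked whether these factors are expressed according to parental origin. None of the 10 was called different between the paternal and maternal allele by edgeR's quasi-likelihood test (adjusted p of at most 0.1), where 178 of 12564 genes tested (1.42%) were called, 1.11% with more paternal and 0.31% with more maternal reads. None had an unadjusted p of at most 0.05 in this fit, which does not pair the alleles of an embryo, and DESeq2 also called none. The log2 fold changes of paternal over maternal ranged from -0.39 for Cdx2 to 0.76 for Elf5, with a median of 0.08 over the members and -0.01 over all genes tested.

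Among the factors that act upstream, Tead4, the DNA-binding partner of Yap1 (chr6:128224288-128300823, minus strand), was read from the B6 allele to 57.2%, 53.6% and 48.6% in forward embryos 1, 2 and 3. In the reverse embryos its B6 share was 49.7%, 58.8%, 47.8%, 59.8% and 51.5% in embryos 1, 2, 3, 5 and 7. The crosses overlapped, with 53.1% ± 4.31 (SD, n = 3) and 53.5% ± 5.43 (SD, n = 5). The fold change of paternal over maternal for Tead4 was -0.004 ± 0.22 (log2, SE) and took either sign depending on the scaling. Klf5, a Krüppel-like factor needed for the first lineage choice, had 0.11 ± 0.23, and Tfap2c, an AP-2 factor that binds many trophectoderm promoters, had -0.02 ± 0.35, which was positive under other scalings.

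Gata3, a trophectoderm driver that acts beside Cdx2, had the second most reads of the members, 4240 over all embryos. Maternal reads numbered 459, 314 and 255 and paternal reads 471, 378 and 244 in forward embryos 1, 2 and 3. In the reverse embryos they numbered 234, 231, 165, 189 and 207 maternal and 178, 241, 190, 263 and 221 paternal. Paternal reads were in excess in 6 of 8 embryos, with paternal shares from 50.6% to 58.2% in those 6, and the log2 fold change was 0.09 ± 0.26 (SE). Eomes, a T-box factor of the trophoblast, had 1100 maternal and 1012 paternal reads in all and a log2 fold change of -0.12 ± 0.45 (SE). It had more maternal than paternal reads in 4 of 8 embryos. Cdx2 had 148 reads over all embryos and Gata2 had 79, so their fold changes of -0.39 ± 0.53 and 0.06 ± 0.87 (log2, SE) were imprecise, and that of Gata2 took either sign among the alternatives.

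Elf5, an ETS factor of trophoblast stem cells (chr2:103411688-103450989, plus strand), had the largest parental difference among the members. It was read to 55.6%, 52.5% and 40.9% from the paternal allele in forward embryos 1, 2 and 3, and to 85.4%, 67.4%, 52.0%, 85.2% and 78.1% in reverse embryos 1, 2, 3, 5 and 7. Paternal reads outnumbered maternal reads in 7 of 8 embryos, all but forward embryo 3 with 9 paternal of 22 reads. Of genes tested, 4.22% had more paternal reads in at least 7 embryos. Both counts take 50% as their cut. In reverse embryo 3 the 52.0%, there B6, lay below the 55.4% to 58.0% B6 of the median gene, so by that reference it was no paternal excess. The shares of the crosses overlapped, with a mean paternal share of 49.6% ± 7.72 (SD, n = 3) for forward embryos and 73.6% ± 14.1 (SD, n = 5) for reverse embryos. The log2 fold change was 0.76 ± 0.40 (SE) with an unadjusted p of 0.0703 and an adjusted p of 0.775 in edgeR, so Elf5 did not pass the test. When the alleles of each embryo were paired as a block, the unadjusted p was 0.0422 and the adjusted p was 0.479. Without reverse embryo 1 the unpaired log2 fold change was 0.67 (adjusted p = 0.813 by edgeR). Elf5 had 22 to 72 reads per embryo, which leaves 95% intervals such as 33.5% to 70.0% at reverse embryo 3.

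Elf3, with 10767 reads the most covered member, had near equal reads of both alleles in the forward cross, where 50.03%, 52.1% and 49.8% of reads were B6 and thus maternal. In reverse embryos 1, 2, 3, 5 and 7 the B6 share, there paternal, was 61.2%, 51.7%, 59.9%, 58.7% and 61.0%. Reverse embryo 2 lay within the forward range and the other 4 reverse embryos lay above it. The forward embryos and reverse embryo 2 lay below the 55.4% to 58.0% of the median gene, and those 4 lay above it. The means were 50.6% ± 1.24 (SD, n = 3) and 58.5% ± 3.90 (SD, n = 5). The log2 fold change of paternal over maternal was 0.21 ± 0.33 (SE, adjusted p = 1), and the term for each embryo gave an unadjusted p of 0.0182 and an adjusted p of 0.304. The B6 share of Elf3 had an SD of 5.07 points over 8 embryos, where counting alone gives 1.48 points, a ratio of 3.43. The median ratio was 2.02 among 5091 genes with a mean of at least 50 reads and at least 20 in every embryo. Counting error shrinks with depth, and these genes were not matched to Elf3 in depth. An SD over 8 embryos includes the difference between the crosses. For Eomes the SD was 4.17 points with 3.76 from counting, and for Tfap2c 5.94 points with 5.85 from counting, so at their lower depth most of the spread was within counting error.

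**Figure D1:**
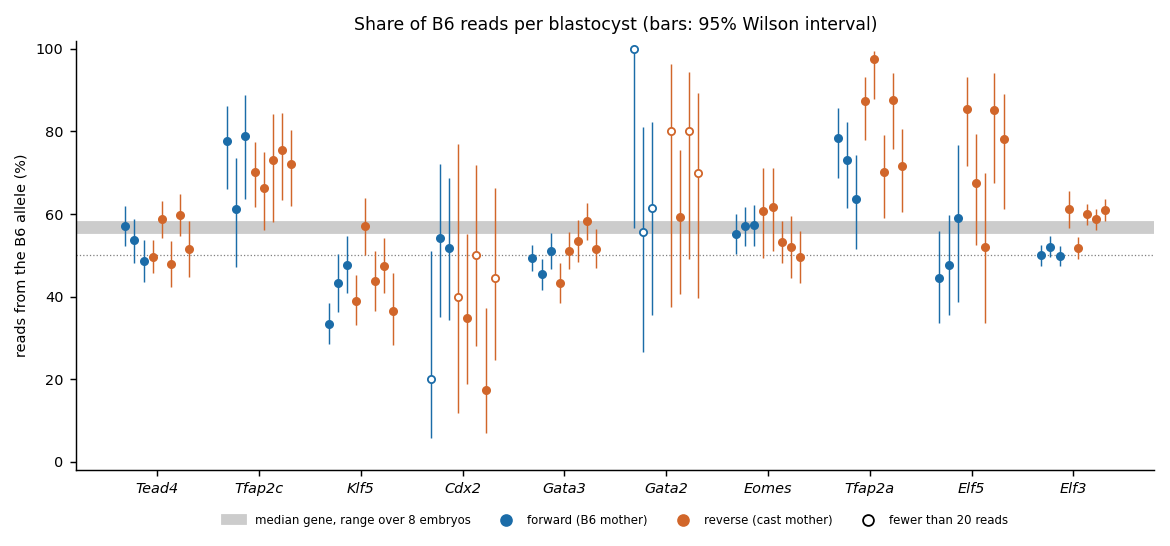
Share of reads from the B6 allele (%) for each of the 10 genes, 1 point per blastocyst (blue forward, orange reverse; open points under 20 reads) with 95% Wilson intervals, which cover counting error only; the grey band is the range over embryos of the median gene, 55.4% to 58.0%. Tfap2c and Tfap2a lie above 50% in all 8 embryos, Klf5 lies below it in 7, and Elf5 and Elf3 lie higher in most reverse than forward embryos.

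A missed threshold does not show that alleles are alike, so a second test asked whether the parental alleles differed by less than 2-fold (one-sided edgeR tests against both ends of that range, taking the larger p). Of the 10 members, 6 passed at an adjusted p of at most 0.1, while 35.4% of genes tested did. They were Tead4 (adjusted p = 0.0170), Klf5 (0.0170), Gata3 (0.0192), Tfap2c (0.0406), Elf3 (0.0532) and Eomes (0.0932) by edgeR. Tfap2a (0.120), Cdx2 (0.247), Gata2 (0.264) and Elf5 (0.410) did not pass. When the alleles of each embryo were paired, the same 6 passed (adjusted p = 1.03e-05 for Eomes and 7.75e-08 for Elf3 by edgeR). Embryos were left out in the unpaired fit only. There, without any 1 of the forward embryos only Tead4, Klf5 and Gata3 passed, and Eomes was also lost without reverse embryo 3, 5 or 7. Tfap2a passed as well, giving 7, without reverse embryo 1 or 2 and with the read minimum required in every embryo (adjusted p = 0.0688). With that minimum 7 of the 8 members tested passed, beside 5589 of 7160 genes. The 35.4% covers genes with fewer reads and is not a background of like depth. Against a narrower margin of 1.5-fold no member and no gene passed, although 1121 genes had an unadjusted p of at most 0.05.

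Differences between the strains' alleles were found for 2 members, Tfap2a toward B6 and Klf5 toward cast. In the same fit 15.4% of genes tested were called, 10.9% toward B6 and 4.47% toward cast. B6 calls were 70.9% of all calls and 87.5% when both alleles of an embryo shared 1 library size, a scaling that moved the median of all genes from -0.06 to -0.39 (log2 of cast over B6).

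Tfap2a, an AP-2 factor at chr13:40715302-40738376 on the minus strand, had more B6 than cast reads in all 8 embryos, which 13.8% of genes tested had. B6 reads numbered 69, 49 and 42 against 19, 18 and 24 cast reads in forward embryos 1, 2 and 3. In reverse embryos 1, 2, 3, 5 and 7 they numbered 63, 42, 54, 43 and 53 against 9, 1, 23, 6 and 21. The B6 share was lowest at 63.6% in forward embryo 3 and highest at 97.7% in reverse embryo 2, with a mean of 78.7% ± 11.3 (SD, n = 8). The log2 fold change of cast over B6 was -1.32 ± 0.42 (SE, adjusted p = 0.0400 by edgeR). When the alleles of each embryo were paired it was -1.50 (adjusted p = 0.00158). The call was lost without forward embryo 1 (-1.22, adjusted p = 0.162) and without forward embryo 2 (-1.30, adjusted p = 0.126). Tfap2a shares 380 exonic bases with Gm26688 on the opposite strand, which had 239 B6 and 36 cast reads. Whether counting used strand is not stated, so reads of this overlap cannot be told apart, and the part of Gm26688 in the Tfap2a difference was not tested.

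Tfap2c, the AP-2 factor of the preimplantation embryo, at chr2:172549593-172558622 on the plus strand, also had more B6 reads in all 8 embryos. They numbered 49, 30 and 30 against 14, 19 and 8 cast reads in forward embryos 1, 2 and 3, and 89, 61, 30, 46 and 62 against 38, 31, 11, 15 and 24 in the reverse embryos. The B6 share ranged from 61.2% to 78.9%, with means of 72.6% ± 9.91 (SD, n = 3) and 71.4% ± 3.44 (SD, n = 5) for the forward and reverse crosses. Its log2 fold change of -0.96 ± 0.37 (SE) missed the threshold in edgeR (adjusted p = 0.103). It passed in the model that pairs the alleles of each embryo (-1.02, adjusted p = 0.00859), with DESeq2 (adjusted p = 0.0489), with 1 library size per embryo (-1.30, adjusted p = 0.0169) and without reverse embryo 1 (adjusted p = 0.0496). Reads were aligned to mm10, the B6 genome, and the part of this in the differences toward B6 was not tested.

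Klf5, at chr14:99298691-99315036 on the plus strand, had more cast than B6 reads in 7 of 8 embryos, as 5% of genes tested had in at least 7. Cast reads numbered 221, 104 and 102 against 110, 79 and 93 B6 reads in forward embryos 1, 2 and 3. In reverse embryos 1, 2, 3, 5 and 7 they numbered 147, 82, 98, 111 and 73 against 94, 109, 76, 100 and 42. Reverse embryo 2 was the exception with 57.1% B6, and forward embryo 1 was the lowest with 33.2% B6. The log2 fold change was 0.77 ± 0.23 (SE, adjusted p = 0.0313 by edgeR). Klf5 no longer passed without forward embryo 1 (0.62, adjusted p = 0.192), with 1 library size per embryo (0.42, adjusted p = 0.240) or without the read minimum (adjusted p = 0.103). Its direction was toward cast under every alternative tried.

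The other 7 members were not called. Gata3 had almost equal sums of B6 and cast reads, 2121 and 2119. Relative to the B6 excess of most genes this gave 0.34 ± 0.26 (log2, SE, adjusted p = 0.499), which passed when the alleles of each embryo were paired (adjusted p = 0.0458) and was -0.01 with 1 library size per embryo. Cdx2 had 0.77 ± 0.53 (SE) with fewer than 30 reads in every embryo. Eomes, Tead4 and Elf3 had 0.05, 0.16 and 0.06 and turned negative with 1 library size per embryo, and Elf5 and Gata2 had -0.33 and -0.63.

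**Figure D2:**
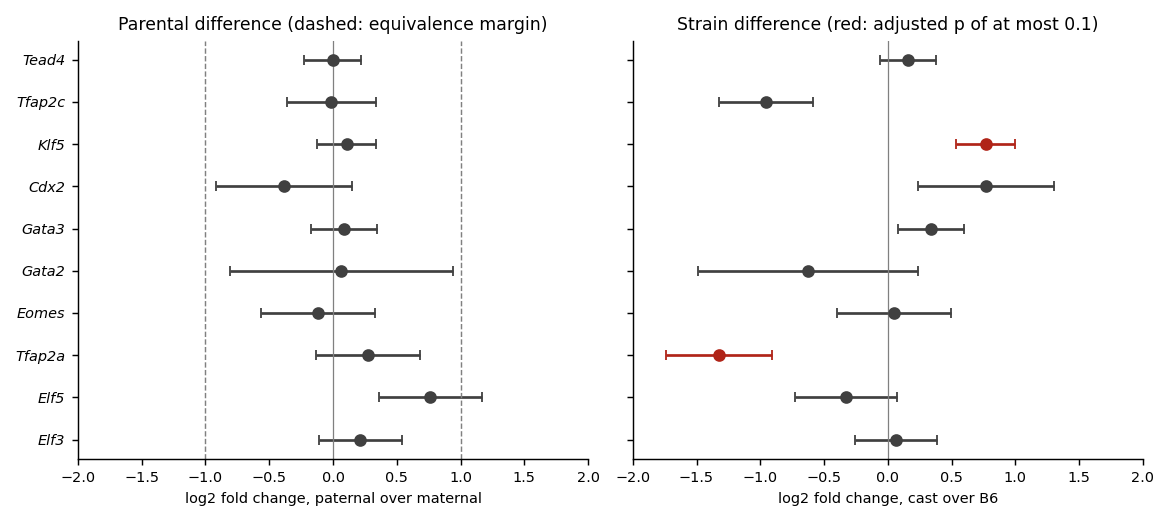
Log2 fold changes of the 10 genes (points) with standard errors (bars) from edgeR over 8 embryos, paternal over maternal on the left with the equivalence margin dashed at -1 and 1, and cast over B6 on the right with calls at an adjusted p of at most 0.1 in red. No parental difference was called, whereas Klf5 (0.77) and Tfap2a (-1.32) were called between strains.

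Total levels varied between embryos to different extents. Eomes had a coefficient of variation of 57.8%, above the upper quartile of 45.7% among 5474 genes with a mean of at least 50 reads, whereas Tead4 (17.1%) and Klf5 (18.4%) lay below the lower quartile of 26.0%. Gata3 (33.5%), Elf3 (35.5%), Tfap2c (38.3%) and Tfap2a (28.5%) lay between the quartiles. In a whole embryo, fewer trophectoderm cells and less RNA per cell cannot be told apart.

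Eomes had 241, 370.4 and 305 CPM in forward embryos 1, 2 and 3, and 44.7, 54.8, 301, 127 and 235 CPM in reverse embryos 1, 2, 3, 5 and 7. Reverse embryos 1 and 2 lay far below the rest, and reverse embryo 3 lay within the forward range. Cdx2, the factor that represses the pluripotency programme in the trophectoderm, had 6.10, 21.6 and 23.9 CPM in the forward embryos. In the reverse embryos it had 3.02, 14.7, 13.1, 17.4 and 17.6 CPM. The lowest Cdx2 values, in reverse embryo 1 and forward embryo 1, were 5 and 10 reads. Elf3 had 910.1, 1375 and 1389 CPM in the forward and 268, 844, 1247, 1157 and 1214 CPM in the reverse embryos. The coefficient of variation of Elf3 was 35.5% with and 18.3% without reverse embryo 1.

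In reverse embryo 1, 5 of the 10 members had their lowest level, namely Cdx2, Eomes, Gata3, Gata2 and Elf3. The median of the other embryos was 5.78 times its value for Cdx2, 5.39 times for Eomes, 4.54 times for Elf3 and 1.65 times for Gata3. Gata2 had 0 reads there, which allows a level of up to 1.81 CPM (3 reads), against 3.05 to 22.1 CPM in the others. Tead4 went the other way and was highest in this embryo, at 352 CPM against 197 to 306, and Tfap2c was second highest at 76.7 CPM. Tfap2a, Elf5 and Klf5 lay within the range of the other embryos. Extremes were common in this embryo for all genes, since 37.6% of genes with a mean of at least 50 reads were lowest and 30.4% highest there, 68.0% together. The 6 of 10 members that were lowest or highest are thus no larger a share than that of all these genes.

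The other trophectoderm genes are given beside the same 68.0%. Of 17 tested product genes, which encode keratins, junction proteins, pumps and the like, 13 were lowest and 2 highest there. Of 15 tested regulators of the lineage other than the 10 members, such as Hippo, Notch and FGF pathway genes, 8 were highest and 1 lowest, 9 in all. Their sum was 2531 CPM against 900 to 1472 in the other embryos. Among 11 tested paralogs of the members, 4 were highest and 3 lowest, 7 in all. The shares of regulators and paralogs were below that of all genes and the share of products was above it, which was not tested. Epiblast markers summed to 880 and primitive endoderm markers to 959, both within the range of the other embryos.

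**Figure D3:**
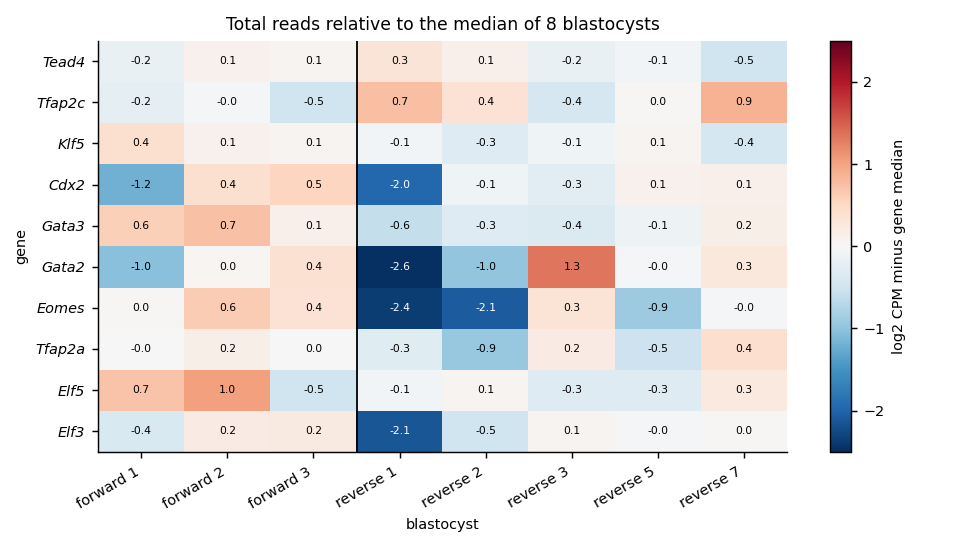
Total reads of each gene per blastocyst as log2 CPM minus the gene's median over 8 embryos (colour and numbers; blue low, red high; prior count of 2), with a line between forward and reverse embryos. Reverse embryo 1 is lowest for Cdx2, Gata3, Gata2, Eomes and Elf3 and highest for Tead4.

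Total levels were then compared between the crosses, 3 forward against 5 reverse embryos. None of the 10 members was called by edgeR's quasi-likelihood test on total reads, and 13 genes (0.103% of those tested) were, 0.0398% higher in reverse and 0.0637% higher in forward embryos. Of the members, only Gata3 had an unadjusted p of at most 0.05, and DESeq2, which called 130 genes, called no member. The median log2 fold change of reverse over forward was -0.37 over the members and 0.08 over all genes tested. Without reverse embryo 1 these medians were -0.15 and 0.02. Without forward embryo 1 they were -0.40 and 0.11. With all embryos and without reverse embryo 1, 8 of the 10 members had a negative value, and without forward embryo 1, 9 did. With all embryos 44.5% of genes tested had a negative value, a share not counted for the fits that left an embryo out.

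Gata3 was measured at 567.7, 622 and 411 CPM in forward embryos 1, 2 and 3. It had 249, 301, 290.1, 343 and 418 CPM in reverse embryos 1, 2, 3, 5 and 7. Forward embryo 3 and reverse embryo 7 overlapped by a small margin, with means of 534 ± 110 (SD, n = 3) and 320.2 ± 64.2 CPM (SD, n = 5). The log2 fold change was -0.74 ± 0.30 (SE) with an unadjusted p of 0.0279 and an adjusted p of 0.587 by edgeR, and without reverse embryo 1 it was -0.65 (adjusted p = 0.254). Eomes had -1.01 ± 0.52 (SE, adjusted p = 0.701 by edgeR) and -0.77 (adjusted p = 0.436) without reverse embryo 1.

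Klf5 was the only member whose crosses did not overlap, which 6.33% of genes tested had. It lay at 202, 165 and 161 CPM in the forward embryos and at 146, 122, 142, 160.04 and 112 CPM in the reverse embryos. The gap between forward embryo 3 and reverse embryo 5 was under 1 CPM, and the fold change of -0.37 ± 0.28 (log2, SE, adjusted p = 0.772 by edgeR) did not pass. Tfap2c had the largest positive value at 0.66 ± 0.38 (SE, adjusted p = 0.709), with 38.5, 44.1 and 31.3 CPM in the forward and 76.7, 58.6, 33.5, 46.3 and 84.1 CPM in the reverse embryos. Elf5 had -0.65 ± 0.41 and Elf3 -0.37 ± 0.44 (log2, SE), and the value of Elf3 was -0.13 without reverse embryo 1. Tead4 (-0.03) and Gata2 (0.22) took either sign among the alternatives, and Tfap2a had -0.21. Cdx2 had -0.38, which was -0.11 without reverse embryo 1 and -0.79 without forward embryo 1.

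**Figure D4:**
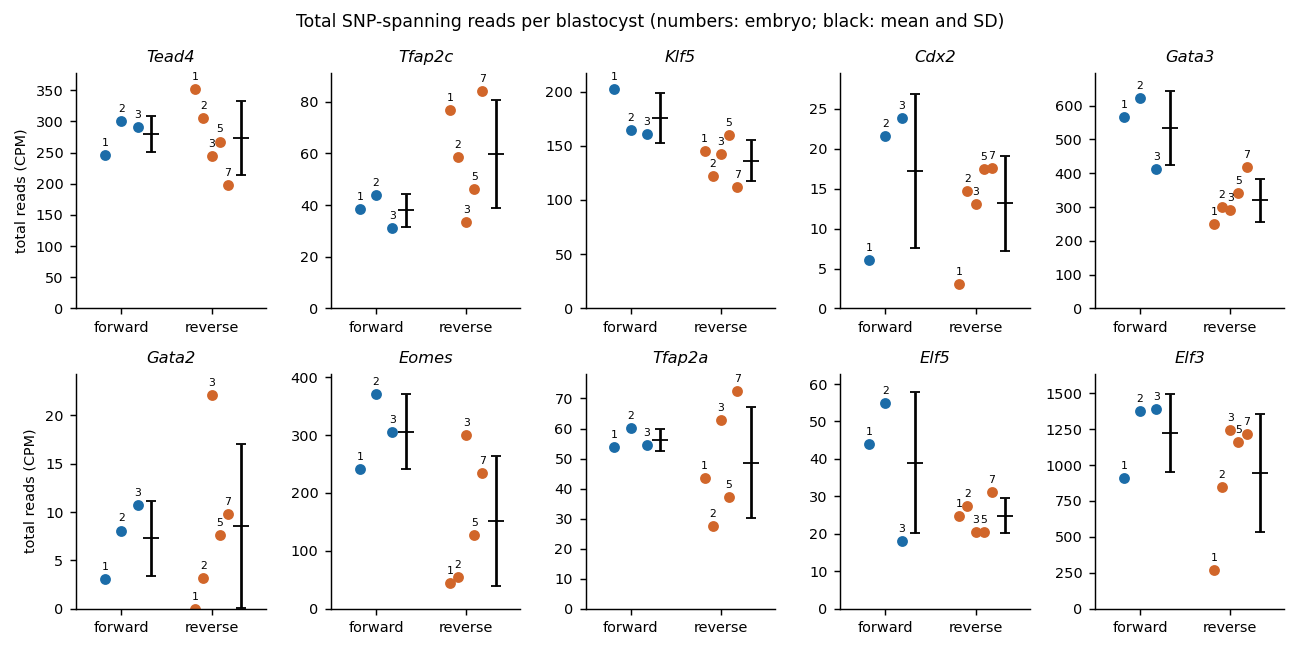
Total SNP-spanning reads (CPM, linear axes from 0, a scale per gene) of each blastocyst by cross, labelled by embryo number, with the mean and SD of 3 forward and 5 reverse embryos in black. Reverse embryo 1 is the lowest point for Cdx2, Gata3, Gata2, Eomes and Elf3, and only for Klf5 do the crosses not overlap.

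To see which members varied together, log2 CPM was correlated over the 8 embryos for all 45 pairs. A positive Pearson's r was found for 26 pairs, 7 had a permutation p of at most 0.05, and none had an adjusted p of at most 0.1 (smallest 0.108 for Pearson's r and 0.205 for Spearman's rho). The highest values involved Elf3. For Gata2 and Elf3, r was 0.895 (exact permutation p = 0.00263) and rho 0.857 (p = 0.0107), with r = 0.940 without the 2 embryos farthest from the median of Gata2 and 0.782 without reverse embryo 1, where Gata2 had 0 reads. For Cdx2 and Elf3, r was 0.884 (exact permutation p = 0.00717) and rho 0.810 (p = 0.0218), with r = 0.612 without the 2 farthest embryos and 0.706 without reverse embryo 1. For Eomes and Elf3, r was 0.803 (exact permutation p = 0.00593) and rho 0.905 (p = 0.00456), with r = 0.429 without the 2 farthest embryos and 0.751 without reverse embryo 1. All 3 values of r were lower without reverse embryo 1, and those of Cdx2 and Eomes with Elf3 were lower without the 2 farthest embryos as well.

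Each member with a mean of at least 20 reads, which left out Cdx2 and Gata2, was also set beside 5473 tested genes (5474 for Elf5) with a mean of at least 50 reads, to name the genes whose log2 CPM over the 8 embryos was most like it. The most similar were Twf1 for Eomes (r = 0.986), Cfap97 for Gata3 (0.978), Tpp1 for Tead4 (0.929), Rnf213 for Tfap2c (0.961), Atrn for Tfap2a (0.963), Cln3 for Elf5 (0.946), Epb41l4aos for Klf5 (0.978) and Hmgb1 for Elf3 (0.990). With 8 points from the same libraries and so many candidates, such values are descriptions.

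The other genes of the lineage were tested in the same fits. Of 15 tested trophectoderm regulators, 17 products and 11 paralogs, none was called between parents by edgeR, with medians of 0.08, 0.02 and 0.02 (log2) against -0.01 over all genes tested, and 10, 10 and 7 of them passed the equivalence test (27 of 43, or 62.8%, against 35.4% of genes tested). The 2 shares are not of like depth, since the 35.4% covers genes with few reads. With 1.42% of genes tested called between parents, a list of this size is too short to read anything from the absence of calls. Between strains 8 of the 43 (18.6%) were called, near the 15.4% of genes tested, and 2 of them were regulators. They were Amotl1, a Yap1-binding protein (-2.22 ± 0.65, SE), and Id2, an inhibitor of basic helix-loop-helix factors (-0.79 ± 0.25, SE), both with more B6 reads in all 8 embryos. Of the products 5 were called, the keratin Krt8 (-1.72), the water channel Aqp3 (-1.65) and Sfn (-2.26) toward B6 and the tight junction genes Cldn4 (2.79) and Cldn6 (2.51) toward cast. Of the paralogs only Klf4, a Krüppel-like factor of the same family as Klf5, was called (0.85 ± 0.27, SE, adjusted p = 0.0399), toward cast as Klf5 was. No gene of these 3 lists was called between the crosses.

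Among 9 tested epiblast markers, Tdgf1 (-1.91) and Utf1 (-2.15) were called between strains, both toward B6, and none was called between parents. None of 7 tested primitive endoderm markers was called in any of these differences. Of 5 tested leukocyte markers, Lyz2 and C1qb were called maternal, toward B6 and higher in the forward cross. Most reads of the leukocyte list came from 1 embryo, with 1393 in forward embryo 1. Forward embryos 2 and 3 had 52 and 75, and the reverse embryos 4 to 8. Values of these calls without forward embryo 1 are not given here. Of 6 tested markers of uterine and oviduct epithelium, Ovgp1 (-4.04) and Wfdc2 (0.95) were called between strains only, and the list summed to 95.1 to 238 CPM. None of 3 tested oocyte markers was called, and their list summed to 14.6 to 52.5 CPM. The part of maternal cells or RNA in the members' values was not tested.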

How the data were processed

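Single blastocysts were sequenced with SMART-Seq2. The authors aligned reads to mm10 with STAR (version 2.5.2b in the submitters' processing notes, which also name SAMtools 1.9-92), excluded reads with multiple locations, kept reads over annotated B6/cast SNPs and deposited the raw counts that Allelome.Pro gave for each gene, embryo and strain before its own calls. Symbols were matched to GENCODE M21 (18286), RefSeq (2999) or a synonym (414). The 1111 unmatched genes (0.849% of reads) and the X-linked genes were left out.

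edgeR 4.0.16 (R 4.3.3, limma 3.58.1) quasi-likelihood tests with TMM factors and strain and parent as terms were run over 16 allele libraries, for genes with at least 10 reads in at least 1 library, and with cross as the term over 8 totals. Standard errors were derived from the test statistics. In the main fit those of allele differences include differences in total level between embryos. With a term for each embryo the SE of the parental difference fell from 0.33 to 0.084 for Elf3 and from 0.45 to 0.14 for Eomes. That of Gata2 rose from 0.87 to 1.35. CPM divides by the reads of tested genes times the TMM factor, and sums of lists are CPM of all reads without TMM. Adjustment (Benjamini-Hochberg, at most 0.1) was over all genes tested. Shares were averaged over embryos with at least 20 reads, and Wilson intervals (95%) and the floor of 3 reads cover counting error only, since no molecular identifiers were used.

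Alternatives were DESeq2 1.42.0, RLE size factors, 1 library size per embryo, 2 read minimums, an equivalence margin of 1.5-fold, a term for each embryo or number, other read minimums for shares and leaving out each embryo. The alleles of 1 embryo are a true pair, with correlated deviations from the group means (r = 0.0821 to 0.487), so the term for each embryo is given where it changed a call. In simulated counts of 11394 genes, a 2-fold parental change was given to 24 genes and a 4-fold change to 25. Of these, 12.5% and 80% were recovered. For the crosses, with 11821 genes and 25 changed at each size, it was 0% and 56%. The rates rest on few genes and are coarse. The simulation drew the alleles of an embryo independently and changed only genes with more reads than Gata2 had. Its rates therefore do not describe paired alleles or Gata2. The members, lists and tests were chosen with earlier results of these data known. Named genes are the 10 members, the called genes of the lists, the markers that define the leukocyte list and the first of the 3 most similar genes of each member.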

Additional observations from a re-analysis of the deposited data

Results flagged for a closer look

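The B6 share of Elf3 in reverse embryo 2, 51.7%, was far from the other 4 reverse embryos, which lay between 58.7% and 61.2%. Dixon's criterion was applied to 18 groups of the members' values and met in this 1, and chance alone meets it in about 1 of 20 groups. The difference between paternal and maternal reads of Tfap2a ran in opposite directions in the crosses (log2 of cast over B6 -1.32), with a paternal share of 28.3% ± 7.49 (SD, n = 3) for forward embryos and 82.9% ± 11.8 (SD, n = 5) for reverse embryos. That of Klf5 also differed between the crosses (0.77), with a paternal share of 58.6% ± 7.40 (SD, n = 3) and 44.7% ± 8.07 (SD, n = 5). In both cases the strain term of edgeR is the test of the difference between the crosses.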

How the results depend on the processing

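No parental or cross difference of a member was called under any alternative tried. Among the members, the parental log2 fold change of Gata2 was -0.012 with the replicate block (a term for each embryo). That of Tead4 was 0.017 with DESeq2 and with RLE size factors, 0.020 with 1 library size per embryo and 0.0039 without the read minimum. That of Tfap2c was 0.020, 0.0094 and 0.011 with the first 3 of these. The values changed sign within their errors. When each embryo was left out in turn, they ranged from -0.085 to 0.23 for Gata2, -0.069 to 0.056 for Tead4, -0.22 to 0.088 for Tfap2c and -0.040 to 0.20 for Klf5. The genes called between parents numbered 412 without the read minimum, 75 with the minimum in every embryo and 390 with the replicate block.

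Strain calls numbered 1062 genes with the minimum in every embryo and 3209 with the replicate block, and 1205 to 2449 when an embryo was left out, lowest without forward embryo 1. Members called were 1 without the read minimum and 4 with the block (Gata3, Klf5, Tfap2a and Tfap2c), and 0 to 3 when an embryo was left out. With 1 library size per embryo, strain values were -0.28 for Eomes, -0.0058 for Gata3, -0.19 for Tead4 and -0.27 for Elf3. That of Eomes ranged from -0.0018 to 0.084 when an embryo was left out.

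Equivalence was called for 0 genes and 0 members at the 1.5-fold margin. With an embryo left out it was called for 1615 to 5658 genes and 3 to 7 members, and each forward embryo left out gave under 2100 genes (2072, 1830 and 1615). With the read minimum in every embryo 7 of the 8 members tested passed, Tfap2a among them, as did 5589 of 7160 genes. Crosses differed for 130 genes with DESeq2, 144 without the read minimum and 0 by edgeR with the minimum in every embryo, where 512 had an unadjusted p of at most 0.05. Leaving out forward embryos 1, 2 and 3 gave 3, 7 and 8 genes, and leaving out reverse embryos 1, 2, 3, 5 and 7 gave 163, 6, 51, 8 and 8. The cross values were -0.84 for Gata2 and 0.095 for Tead4 with the replicate block (equal numbers in both crosses, which share only a number), and 0.0083 for Tead4 with the minimum in every embryo. They ranged from -0.16 to 0.62 and from -0.13 to 0.070 when an embryo was left out. The cause of these changes was not tested.

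Depth limits Cdx2 and Gata2 most. With at least 10 reads per embryo in place of 20, the mean paternal share of Cdx2 in the forward cross moved from 47.1% to 58.0%, and that of Gata2 in the reverse cross from 59.3% to 69.8%. DESeq2, RLE factors and the block changed no other call of a member than those given here.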
